A study of Saccharomyces cerevisiae with 10 samples.

Results

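The transcripts described here are those of ergosterol synthesis in budding yeast, 31 genes chosen by name: enzymes of the mevalonate, early and late pathway, their electron donors, 3 regulators and the sterol acyltransferases. All 31 were measured, each by 1 probe set of an Affymetrix array, out of 5449 genes in the table. Expression was compared in 5 temperature-sensitive strains, carrying cdc53-1 (strain py175), cdc34-3 (py24), cdc4-3 (py187), skp1-11 (W303) and skp1-25 (py1374), each with 1 array at room temperature (25 °C) and 1 array after 1 h at 35 °C, to find expression signatures of the loss of each product. Cdc53, Skp1 and Cdc4 are subunits of the SCF complex, which with the conjugating enzyme Cdc34 attaches ubiquitin to proteins such as cell cycle inhibitors. All cultures grew in YPDA, a rich glucose medium. Each allele came in 1 named strain, so allele and strain background cannot be told apart, and none of the strains analysed here was wild type for the complex, so warming and loss of SCF function are joined in every change.

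Ergosterol is the main sterol of fungal membranes. It is built from acetyl-CoA through mevalonate, farnesyl diphosphate and squalene, and squalene is epoxidised and closed to lanosterol, which a chain of enzymes in the endoplasmic reticulum converts to ergosterol. Several of these steps consume oxygen and take electrons from the reductase Ncp1 or from cytochrome b5. The zinc cluster factors Upc2 and Ecm22 activate many genes of the pathway when sterol is scarce, and surplus sterol is stored as esters made by Are1 and Are2.

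Values are on a log2 scale, and the number of arrays limits the precision. Array medians lay between 10.96 and 11.13, and correlations between arrays over all probe sets between 0.908 and 0.981. The cdc53-1 arrays stood apart in mating-type genes. The mean of 6 a-specific genes, which mark haploid cells of mating type a, was 7.01 and 7.09 in them, against 10.70 to 11.89 in the other 8 arrays, and 5 of the 6 lay below every other strain at each temperature. The mean of 4 alpha-specific genes was 6.63 to 7.39 in all 10 arrays. The part of this difference in any sterol value of cdc53-1 was not tested. Pathway medians and means whose sign rests on that strain are given with and without it. Some of these lay so near 0 that other strains turned them too. The median of all members was 0.001 without cdc34-3. The mevalonate median and the mean of HMG1 were each 0.02 without cdc34-3 and without skp1-25. The late pathway median stayed below 0 without any strain other than cdc53-1. In bulk RNA, fewer expressing cells and less RNA per cell cannot be told apart.

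Differences between 35 °C and room temperature were small and of both signs in the pathway. Of the 31 genes, 3 rose at 35 °C (IDI1, ERG1 and CYB5) and 2 fell (ERG24 and ECM22) by limma's moderated test with strain as a block and Benjamini-Hochberg adjustment over all genes. That is 16.1% of the members, where 17.6% of all genes were called. By direction, 9.68% rose against 13% of all genes, and 6.45% fell against 4.61%. The median difference of the 31 genes was -0.02, and 0.03 without cdc53-1, and that of all 5449 genes was 0.05. No member had a mean difference of 0.5 or more (0 of 31), which 11.4% of all genes had, and the largest was 0.42, for UPC2. All genes include dimmer ones than any member, and the part of signal level in this contrast was not tested.

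The 5 calls depended on the scaling and on single strains. After median centring or quantile normalization of the arrays the median over all genes moved from 0.05 to -0.02 or -0.03, and that of the members from -0.02 to -0.10. IDI1, ERG1 and CYB5 then missed the threshold with their direction kept (adjusted p from 0.0538 to 0.0924), while ERG24 and ECM22 stayed past it and HMG2, ERG7 and ERG26 joined them as lower. No single strain could be left out without losing at least 3 of the 5 calls.

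The direction was shared by all 5 strains in 14 of the 31 genes (45.2%, against 32.7% of all genes), 7 with a higher value at 35 °C (22.6%, against 21.7%) and 7 with a lower one (22.6%, against 11.0%). The higher ones were ERG10, IDI1, ERG1, ERG11, ERG5, NCP1 and CYB5, and the lower ones ERG13, MVD1, ERG7, ERG24, ERG26, ECM22 and SUT1. Direction was counted at any size, so changes of almost 0 are included. Examples are ERG13 at -0.001 in skp1-11 and -0.006 in skp1-25, and NCP1 at 0.001 in cdc53-1. In IDI1 and ERG24 the 5 values at 35 °C did not overlap the 5 at room temperature (6.45% of members, against 8.68% of all genes). The median SD of the changes over strains was 0.14 among the members and 0.20 among all genes. The lowest percentile of a member's mean level was 20.3, so all genes include dimmer ones than any member. Whether signal level accounts for the smaller SD of the members was not tested. The largest SD was that of ARE2, at 0.62, followed by UPC2 at 0.42.

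**Figure D1:**
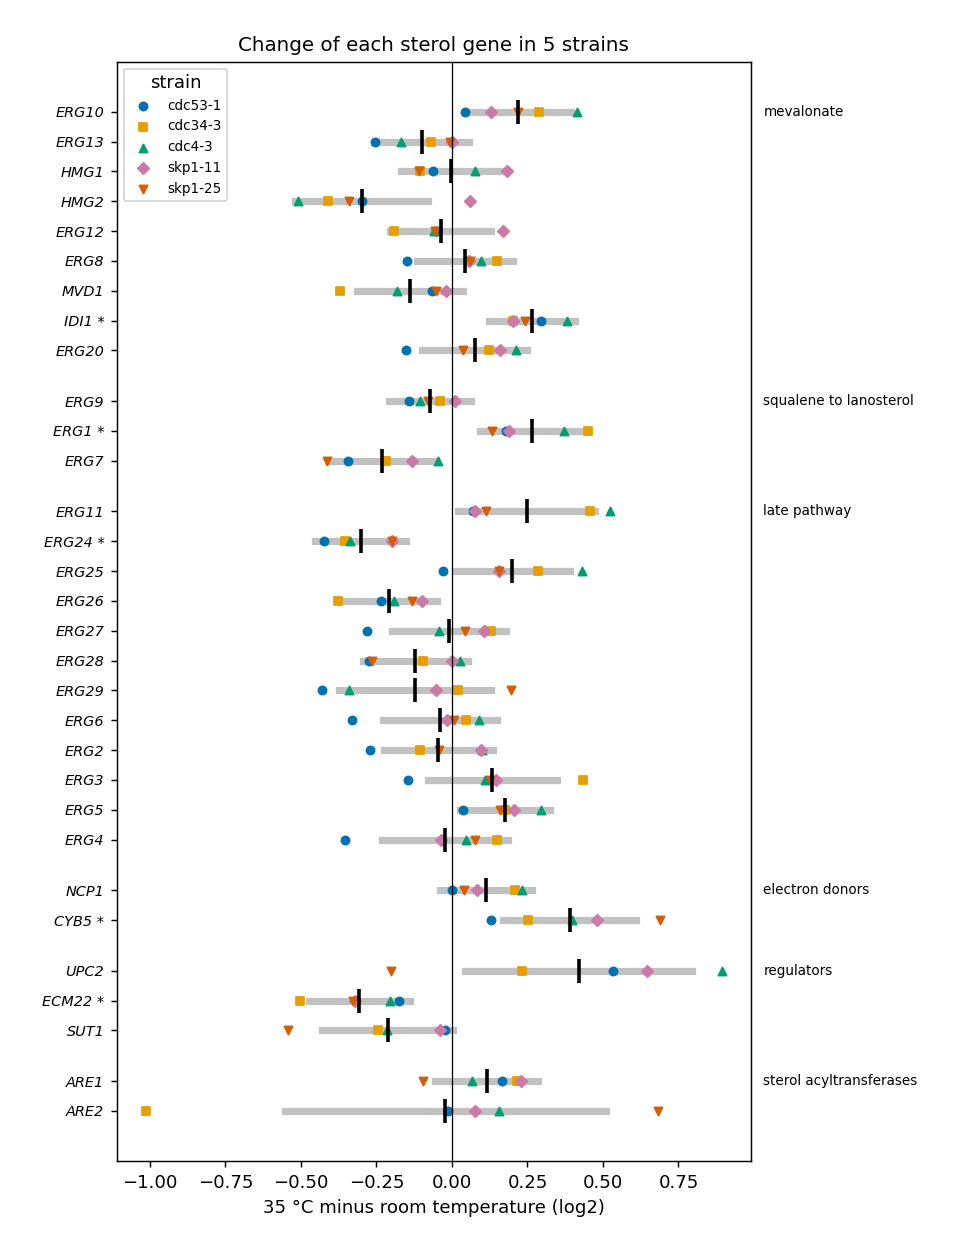
Change of each sterol gene from room temperature to 35 °C (horizontal axis, log2) in each of 5 strains (coloured points), with the mean (black tick) and its 95% confidence interval from limma (grey bar), ordered by role, and an asterisk at adjusted p below 0.05. Most points lie within 0.5 of 0, and ARE2 and UPC2 are spread most widely, ARE2 from -1.01 to 0.68.

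The mevalonate branch, which makes the isoprenoid building blocks, had 1 of 9 genes called, IDI1, and a median difference of 0.00 (0.01 without cdc53-1). IDI1 (YPL117C) encodes the isomerase that interconverts the isoprenoid diphosphates. In the order cdc53-1, cdc34-3, cdc4-3, skp1-11 and skp1-25, which is kept below, it read 12.68, 12.71, 12.69, 12.67 and 12.55 at room temperature and 12.97, 12.91, 13.07, 12.88 and 12.79 at 35 °C. Every value at 35 °C lay above every value at room temperature. The rise was 0.26 ± 0.08 (SD, n = 5 strains; 1.2-fold, limma adjusted p = 0.0287), and it missed the threshold without any 1 of the strains (adjusted p from 0.0559 to 0.0895).

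HMG1 (YML075C) and HMG2 (YLR450W) encode the paired HMG-CoA reductases, the enzymes at the rate-limiting step. HMG2 read 11.55, 11.81, 11.54, 11.81 and 11.72 at room temperature and 11.25, 11.40, 11.03, 11.87 and 11.38 at 35 °C. It was lower in 4 strains and 0.06 higher in skp1-11, with a mean difference of -0.30 ± 0.22 (limma adjusted p = 0.0691). Without skp1-11, the 1 strain that changed the other way, the mean was -0.39 and passed (adjusted p = 0.0381). It passed with no other strain left out (adjusted p up to 0.1927). HMG1 read between 12.45 and 12.86 on the 10 arrays and differed by 0.00 ± 0.13 (adjusted p = 0.984, 95% interval from -0.17 to 0.16). Its mean was -0.003 with all 5 strains and 0.012 without cdc53-1. The change of HMG1 exceeded that of HMG2 in 5 of 5 strains, by 0.12 to 0.59, with a mean of 0.30 ± 0.18. An exact two-sided sign-flip permutation test over the 5 strains gave p = 0.0625, the smallest that 5 strains allow (0.0833 adjusted over the 4 pairs of genes so compared). All 4 pairs were chosen after the data were seen, so their p-values are a description only.

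ERG10 (YPL028W), the acetyl-CoA thiolase gene that opens the pathway, read 13.32, 13.44, 13.18, 13.50 and 13.28 at room temperature and 13.37, 13.72, 13.60, 13.63 and 13.50 at 35 °C. It was higher in all 5 strains, from 0.045 in cdc53-1 to 0.415 in cdc4-3, but the temperature groups overlapped and the mean of 0.22 ± 0.14 missed the threshold (limma adjusted p = 0.0827). It passed with an intensity trend in the variance prior (adjusted p = 0.0280). ERG13, the HMG-CoA synthase gene, and MVD1, the mevalonate diphosphate decarboxylase gene, were lower in all 5 strains by means of -0.10 and -0.14, though ERG13 changed by only -0.001 in skp1-11 and -0.006 in skp1-25. The kinase genes ERG12 and ERG8 and the farnesyl diphosphate synthase gene ERG20 had means of -0.04, 0.04 and 0.08. Those of ERG8 and ERG20 went to -0.03 and -0.01 after quantile normalization. None of these 5 passed the test (adjusted p from 0.228 to 0.750).

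Of the 3 genes from farnesyl diphosphate to lanosterol, ERG1 rose and the others did not pass. ERG1 (YGR175C), the squalene epoxidase gene, read 12.80, 12.78, 12.74, 13.05 and 12.74 at room temperature and 12.98, 13.23, 13.12, 13.24 and 12.87 at 35 °C. The skp1-11 value at room temperature lay above the 2 lowest at 35 °C, so the groups overlapped, though each strain was higher at 35 °C. The rise was 0.27 ± 0.14 (1.2-fold, limma adjusted p = 0.0495) and was lost without any 1 of the strains (adjusted p from 0.0753 to 0.143).

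ERG7 (YHR072W), the lanosterol synthase gene whose enzyme acts next, read 12.58, 12.54, 12.59, 12.57 and 12.48 at room temperature and 12.23, 12.33, 12.54, 12.43 and 12.07 at 35 °C. It was lower in all 5 strains, by a mean of -0.23 ± 0.15 (limma adjusted p = 0.0768), and passed after quantile normalization (-0.31, adjusted p = 0.0215). ERG9, the squalene synthase gene at the branch point from other isoprenoids, was the steadiest member, with all 10 arrays within 0.19 of each other and a mean difference of -0.07 ± 0.06 (adjusted p = 0.415).

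**Figure D2:**
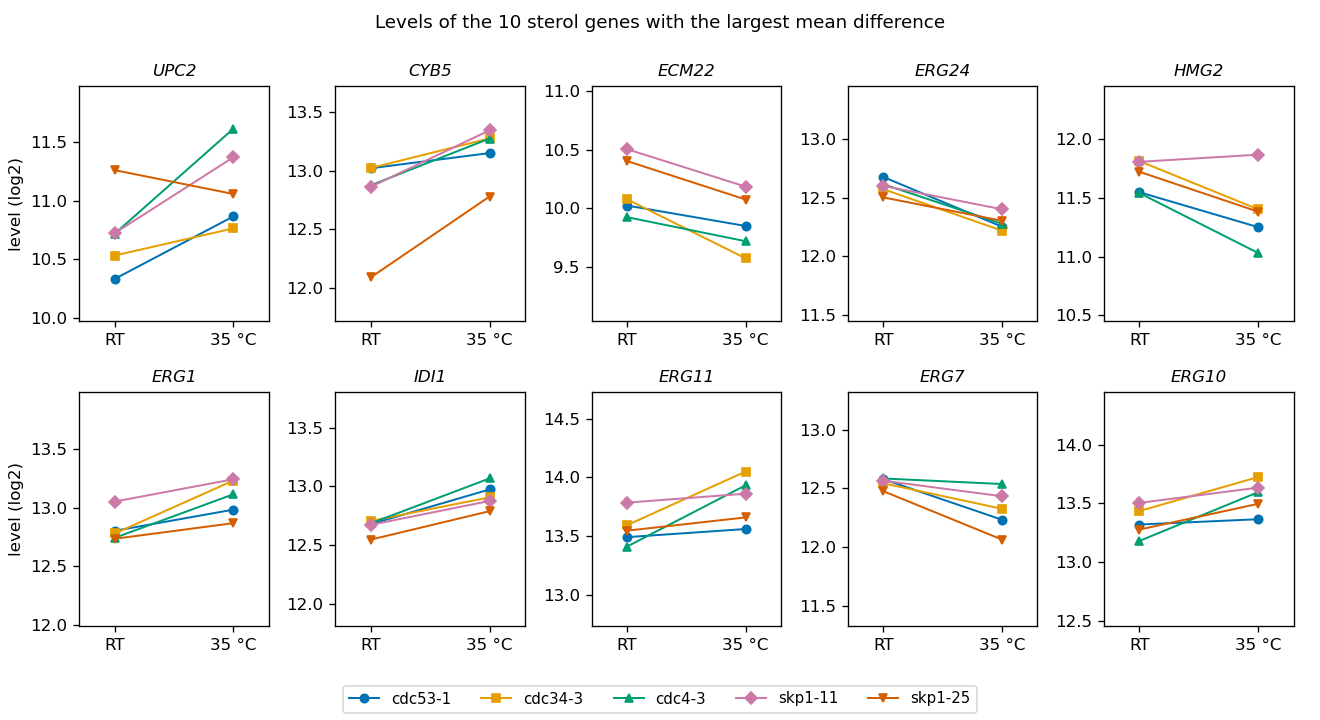
Levels (vertical axis, log2; each panel spans 2 units) at room temperature and at 35 °C of the 10 sterol genes with the largest absolute mean difference, with 1 line per strain. The lines of IDI1 and ERG24 run parallel with no overlap between temperatures, UPC2 slopes down only in skp1-25, and CYB5 starts at 12.09 in skp1-25 and between 12.86 and 13.02 in the others.

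Among the 12 late pathway genes, which turn lanosterol into ergosterol, 1 fell, ERG24, and 0 rose. The median difference was -0.03, and 0.05 without cdc53-1, with 8 of the 12 means then above 0. ERG24 (YNL280C), the sterol reductase gene whose enzyme follows Erg11, read 12.68, 12.57, 12.61, 12.60 and 12.50 at room temperature and 12.25, 12.22, 12.28, 12.40 and 12.30 at 35 °C. Every value at 35 °C lay below every value at room temperature. The difference was -0.30 ± 0.10 (1.23-fold lower, limma adjusted p = 0.0239). It passed after both rescalings and without skp1-25 (adjusted p = 0.0484), and missed the threshold without any other strain (0.0521 to 0.0810).

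ERG11 (YHR007C), the lanosterol demethylase gene and the target of azole drugs, read 13.49, 13.59, 13.41, 13.78 and 13.55 at room temperature and 13.56, 14.05, 13.93, 13.86 and 13.66 at 35 °C. It was higher by 0.46 in cdc34-3 and 0.52 in cdc4-3, and by 0.07 to 0.11 in the other 3 strains. The mean of 0.25 ± 0.22 did not pass (limma adjusted p = 0.117, 95% interval from 0.02 to 0.47). ERG25, the methyl oxidase gene, had changes of 0.29 and 0.43 in the same strains, 0.16 in each skp1 strain and -0.03 in cdc53-1 (mean 0.20 ± 0.17, adjusted p = 0.131).

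ERG26, the decarboxylase gene whose product works with Erg25, was lower in all 5 strains, from -0.10 in skp1-11 to -0.38 in cdc34-3 (mean -0.21 ± 0.11, adjusted p = 0.0721), and passed after quantile normalization (-0.29, adjusted p = 0.0300). Of the same demethylation complex, ERG27, the ketoreductase gene, had a mean of -0.01 (0.06 without cdc53-1), and ERG28, the scaffold gene, one of -0.12, and neither passed. ERG29, which is needed for methyl sterol oxidation, had changes from -0.43 in cdc53-1 to 0.20 in skp1-25.

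None of the genes of the last enzymes passed the test. Means were -0.04 for ERG6, the sterol methyltransferase gene, -0.04 for ERG2, the isomerase gene, 0.13 for ERG3, the desaturase gene, 0.18 for ERG5, the cytochrome P450 desaturase gene, and -0.02 for ERG4, the gene of the final reductase. Without cdc53-1 the means of ERG6, ERG2 and ERG4 were 0.03, 0.01 and 0.06. ERG5 was higher in all 5 strains, by 0.04 to 0.30 (limma adjusted p = 0.101). ERG3 was 0.43 higher in cdc34-3, 0.11 to 0.15 higher in cdc4-3, skp1-11 and skp1-25, and changed by -0.14 in cdc53-1 (mean adjusted p = 0.326).

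Of the electron donors, CYB5 (YNL111C), the cytochrome b5 gene, rose. It read 13.02, 13.02, 12.88, 12.86 and 12.09 at room temperature and 13.15, 13.27, 13.27, 13.34 and 12.78 at 35 °C. The groups overlapped only through the skp1-25 value at 35 °C, which lay below the room temperature values of the other strains. The rise was 0.39 ± 0.21 (1.31-fold, limma adjusted p = 0.0330), from 0.13 in cdc53-1 to 0.69 in skp1-25. It stayed past the threshold without cdc53-1 (adjusted p = 0.0337) and missed it without any other strain (0.0584 to 0.101). NCP1, the gene of the reductase that serves Erg1, Erg11 and Erg5, was higher by a mean of 0.11 ± 0.10 (adjusted p = 0.257). CYB5 changed more than NCP1 in 5 of 5 strains, by 0.28 ± 0.25 (exact sign-flip permutation p = 0.0625, adjusted 0.0833). This pair too was chosen after the data were seen.

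The paralogous activators UPC2 and ECM22 had mean differences of opposite sign, and ECM22 passed the test. ECM22 (YLR228C) read 10.02, 10.08, 9.92, 10.50 and 10.40 at room temperature and 9.85, 9.57, 9.72, 10.18 and 10.07 at 35 °C. It was lower in every strain, while the skp1 strains stayed above the others at both temperatures. The difference was -0.31 ± 0.13 (1.24-fold lower, limma adjusted p = 0.0299), and it passed after both rescalings and without cdc53-1 (adjusted p = 0.0493), but missed the threshold without any other strain (0.0677 to 0.0843).

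UPC2 (YDR213W) read 10.34, 10.53, 10.72, 10.73 and 11.26 at room temperature and 10.87, 10.77, 11.61, 11.37 and 11.06 at 35 °C. It was higher by 0.23 to 0.89 in 4 strains and changed by -0.20 in skp1-25, which had the highest value at room temperature. The mean of 0.42 ± 0.42 did not pass (limma adjusted p = 0.111). Without skp1-25, the 1 strain that changed the other way, the mean was 0.58 and passed (adjusted p = 0.0386). It passed with no other strain left out (adjusted p up to 0.2825). The change of UPC2 exceeded that of ECM22 in 5 of 5 strains, by 0.13 in skp1-25 and 0.71 to 1.10 elsewhere. The mean was 0.73 ± 0.37 (exact sign-flip permutation p = 0.0625, adjusted 0.0833), in a pair chosen after the data were seen. SUT1, a regulator of sterol uptake, was lower in all 5 strains, from -0.02 in cdc53-1 to -0.54 in skp1-25 (mean -0.21 ± 0.21, adjusted p = 0.151).

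The sterol acyltransferase genes did not pass. ARE2 (YNR019W), which encodes the main enzyme of ergosterol esterification, was the most variable member. It read 10.40, 10.62, 9.64, 11.28 and 10.02 at room temperature and 10.39, 9.61, 9.79, 11.36 and 10.71 at 35 °C. Its change was -1.01 in cdc34-3, 0.68 in skp1-25 and between -0.01 and 0.16 in the other 3 strains, with a mean of -0.02 ± 0.62 (limma adjusted p = 0.960). ARE1 had a mean of 0.12 ± 0.13 (adjusted p = 0.291), and the difference between the changes of ARE1 and ARE2 was above 0 in 3 strains and below 0 in 2 (exact sign-flip permutation p = 0.625).

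Strain by strain, where each change rests on 1 pair of arrays and has no replicate, the cdc53-1 mutant of the cullin scaffold had the lowest sterol changes. Its median over the 31 genes was -0.14, against 0.00 for all genes in that strain, and 22 of 31 were lower at 35 °C, where 50.2% of all genes were. In 18 of 31 members cdc53-1 had the lowest change of the 5 strains, which held for 29.8% of all genes. Of the late pathway, 11 of 12 genes were lowest in cdc53-1, with a median of -0.27, where the other strains had medians from 0.04 to 0.09. The 3 lowest changes were those of ERG29 (-0.43), ERG24 (-0.42) and ERG4 (-0.35), and the 3 highest those of UPC2 (0.53), IDI1 (0.30) and ERG1 (0.18). The late genes were level with the other strains at room temperature (median difference 0.03, 4 of 12 lower) and below them at 35 °C (-0.30, 11 of 12 lower). Low cdc53-1 medians were also found in related gene groups described below. The median was -0.32 in haem synthesis (-0.33 in skp1-25), -0.19 in isoprenoid branches and -0.13 in sterol transfer and export. It was -0.12 in steryl ester hydrolysis and sterol acetylation and -0.05 in fatty acid genes. All but haem synthesis were lowest in cdc53-1. The cdc53-1 medians of sterol uptake, Hmg2 and Erg1 turnover and oxygen and haem regulators were 0.07, 0.07 and 0.03.

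**Figure D3:**
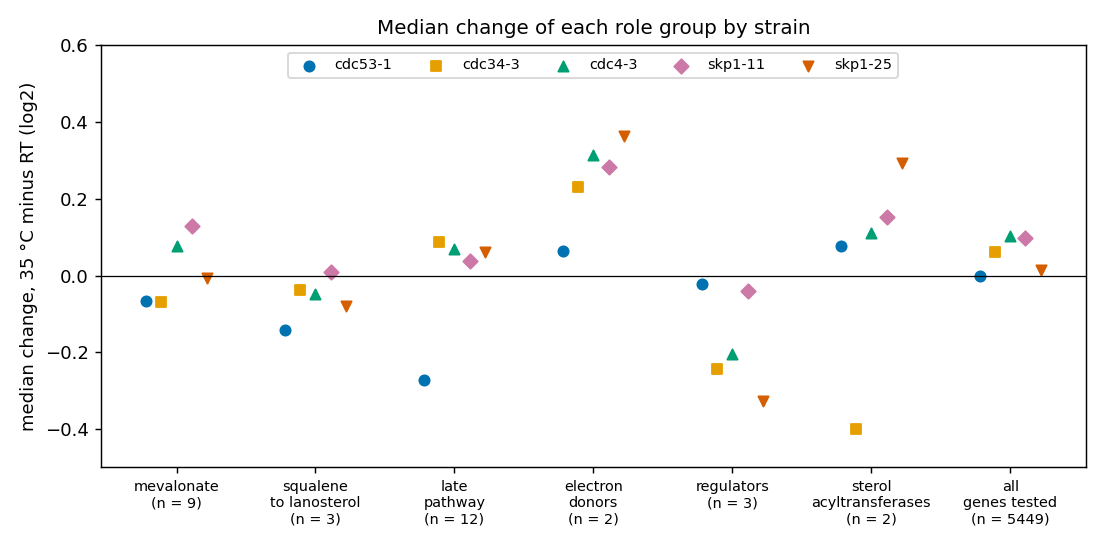
Median change from room temperature to 35 °C (vertical axis, log2) of each role group and of all genes tested, with 1 point per strain and the number of genes under each group. In the late pathway the cdc53-1 median is -0.27 and the other strains lie between 0.04 and 0.09.

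In the other strains the members' medians lay near those of all genes: 0.05 against 0.06 for cdc34-3, 0.08 against 0.10 for both cdc4-3 and skp1-11, and 0.01 against 0.02 for skp1-25. In cdc34-3, the mutant of the ubiquitin-conjugating enzyme, ERG11 (0.46), ERG1 (0.45) and ERG3 (0.43) had the highest changes and ARE2 (-1.01), ECM22 (-0.50) and HMG2 (-0.41) the lowest. In cdc4-3, the F-box mutant, UPC2 (0.89), ERG11 (0.52) and ERG25 (0.43) led, and HMG2 (-0.51), ERG29 (-0.34) and ERG24 (-0.34) were lowest. Among the adaptor mutants, CYB5 was among the 3 highest and ERG7 among the 3 lowest in both. UPC2 (0.65), CYB5 (0.48) and ARE1 (0.23) led in skp1-11, and CYB5 (0.69), ARE2 (0.68) and IDI1 (0.24) in skp1-25. The lowest were ECM22 (-0.32), ERG24 (-0.20) and ERG7 (-0.13) in skp1-11, and SUT1 (-0.54), ERG7 (-0.41) and HMG2 (-0.34) in skp1-25.

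Changes of 0.5 or more were found in 0 to 2 members per strain and direction, not always a smaller share than among all genes. Positive changes of that size were found in 1 of 31 members in cdc53-1 (11.5% of all genes), 0 in cdc34-3 (13.6%) and 2 in cdc4-3 (15.1%). The counts were 1 for skp1-11 (13.2%) and 2 for skp1-25 (8.2%). Negative changes of that size were found in 0 members in cdc53-1 (7.84% of all genes), 2 in cdc34-3 (5.16%) and 1 in cdc4-3 (4.97%). The counts were 0 for skp1-11 (3.21%) and 1 for skp1-25 (5.41%). Here too all genes include dimmer ones than any member, and the part of signal level was not tested.

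Whether a strain's change differed from those of the others was tested over the 5 changes with limma, for each strain and for both skp1 alleles together. No member passed in any of these 6 contrasts (0 of 186 comparisons), nor did any other gene (0% of all genes in each contrast), with 168 to 477 genes at an unadjusted p under 0.05. In cdc53-1 the member farthest from the mean of the others was ERG4, at -0.35 against 0.06 (difference -0.41, 95% interval from -0.81 to -0.02, adjusted p = 0.543). In cdc34-3 it was ARE2, at -1.01 against 0.23 (difference -1.24, interval from -1.97 to -0.51, adjusted p = 0.553). In cdc4-3 it was UPC2 (difference 0.59), in skp1-11 HMG2 (0.45) and in skp1-25 ARE2 (0.88), each with adjusted p of 0.997 or above. For both skp1 alleles it was ARE2, at 0.38 against -0.29 (difference 0.67, interval from -0.33 to 1.67, adjusted p = 0.996). In simulated data, changes were planted in cdc53-1 alone and that strain was set against the others. This recovered 0.224% of genes changed by 0.5, 16.8% of genes changed by 1 and 70.2% of genes changed by 2. The contrast of both skp1 alleles was not simulated.

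Standing levels, taken over both temperatures, separated the strains in 1 of 155 comparisons of a member in a strain with the mean of the other 4. CYB5 was lower in skp1-25, at 12.44 against 13.10 (difference -0.67 ± 0.11, SE; limma adjusted p = 0.0375), where 2.81% of all genes were called. The difference was -0.85 at room temperature and -0.48 at 35 °C. It remained past the threshold after both rescalings (adjusted p = 0.0401 after median centring and just under 0.05 after quantile normalization), and missed it without any 1 of the other strains (0.0538 to 0.0760). Each strain has 1 array per temperature, so this p measures how far the difference holds at both temperatures.

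No member was called in the other strains, where 5.8% of all genes were called in cdc53-1, 0.33% in cdc34-3, 3.25% in cdc4-3 and 4.66% in skp1-11. ARE2 was the farthest member in cdc4-3, at 9.71 against 10.55 (difference -0.83, adjusted p = 0.166), and in skp1-11, at 11.32 against 10.15 (difference 1.18, adjusted p = 0.0676). In skp1-11 it lay above every other array at both temperatures, and it passed without cdc34-3 (adjusted p = 0.0184), with the dimmest 20% of genes left out (0.0488) and with the intensity trend (0.0323). In cdc4-3 it passed without cdc34-3 (-0.98, adjusted p = 0.0433). UPC2 was the farthest in cdc53-1 (-0.41, adjusted p = 0.236) and in cdc34-3 (-0.34, adjusted p = 0.490).

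**Figure D4:**
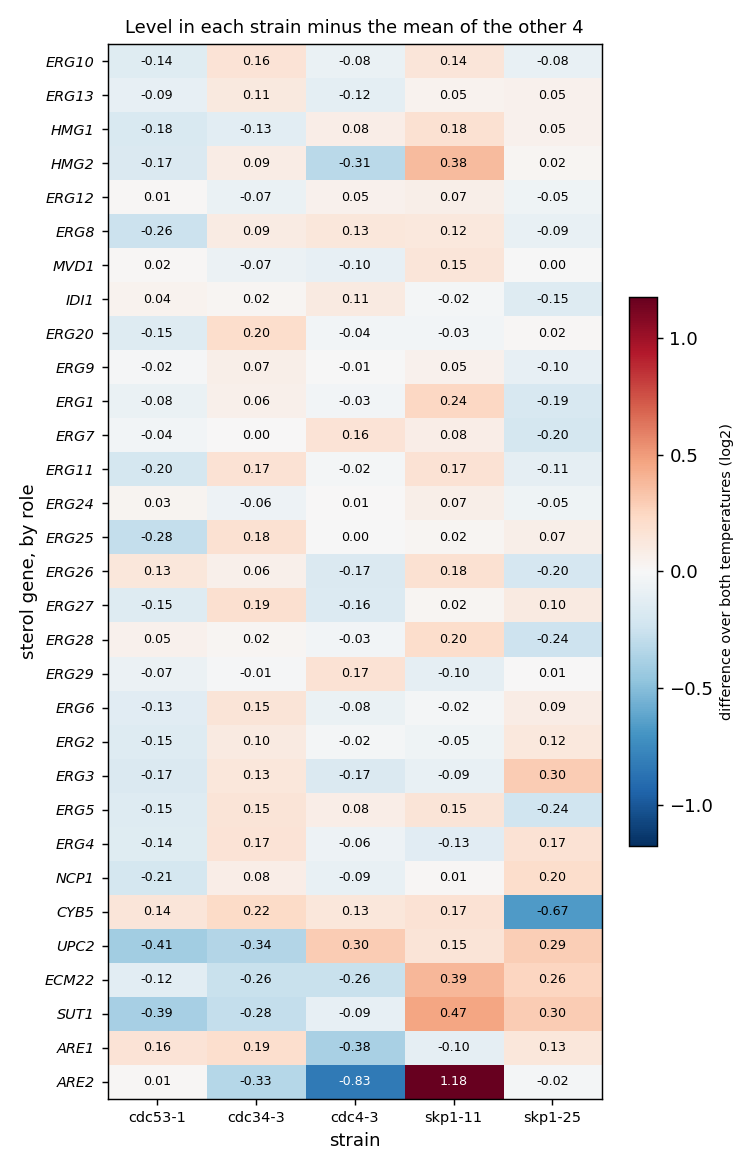
Level of each sterol gene in each strain minus the mean of the other 4 strains, over both temperatures (colour and printed value, log2), with genes in rows by role and strains in columns. Most enzyme genes lie within 0.3 of 0, and the deepest colours are ARE2 in skp1-11 (1.18) and cdc4-3 (-0.83) and CYB5 in skp1-25 (-0.67).

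Related genes outside the pathway were listed in 8 groups of 70 measured genes, of which 15 rose (21.4%, against 13% of all genes) and 7 fell (10%, against 4.61%). The groups were chosen with earlier results of these data known, so these shares are a description and not a test. In sterol transfer and export, 3 of 14 rose and 1 fell. HES1, which encodes an oxysterol-binding protein homologue, rose from 6.31 to 7.63 on average (1.32 ± 0.61, limma adjusted p = 0.0123). These levels lay far below the array medians of 10.96 to 11.13. At a similar level the alpha-specific gene STE3 rose from 6.42 to 7.57 (1.16, limma adjusted p = 0.0194). It was the 1 gene called of the 4 alpha-specific genes. MF(ALPHA)2, another of them, read 6.05 on average at room temperature and changed by -0.26 (limma adjusted p = 0.497). Of 2 dimmer genes, MF(ALPHA)1 changed by 0.71 and DAN1 by -0.34, and neither passed. Low values thus changed in both directions. Whether such low values follow the transcript was not tested. YSP2, the gene of a sterol transfer protein at membrane contacts, and SWH1, another oxysterol-binding protein homologue, rose by 0.40 and 0.43, while SIP3 fell by 0.37. Among sterol uptake and anaerobic wall genes, 2 of 9 rose and 1 fell: the sterol importer gene PDR11 rose by 0.35 and SUT2 by 0.31, and the mannoprotein gene TIR3 fell by 1.21 ± 0.48 (adjusted p = 0.00917).

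For the turnover of steryl esters and acetylated sterols, 2 of 5 rose and 1 fell. The steryl ester hydrolase gene YEH1 rose by 0.75 ± 0.32 and the sterol deacetylase gene SAY1 by 0.34, and the sterol acetyltransferase gene ATF2 fell by 0.78 ± 0.41. Of 11 genes linked to the turnover of Hmg2 and Erg1 in the endoplasmic reticulum, 3 rose and 1 fell. DER1 rose by 0.50, CUE1 by 0.31 and HRD3 by 0.31, and NSG1, whose product stabilises Hmg2, fell by 0.28. On the side branches from farnesyl diphosphate and related isoprenoids, 2 of 12 rose, the prenyltransferase gene SRT1 by 0.97 ± 0.47 and the transfer RNA modifier gene MOD5 by 0.30, and 2 fell, the farnesyltransferase subunit gene RAM1 by 0.37 and the ubiquinone side chain gene COQ1 by 0.24.

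DAP1, which encodes a haem-binding protein that sustains Erg11, rose in 5 of 5 strains by 0.69 ± 0.18 (limma adjusted p = 0.00635) and was the 1 gene called of 4 oxygen and haem regulators. Haem synthesis had 1 of 8 genes higher, HEM14 (0.54 ± 0.09), and 1 lower, HEM12 (-0.39). Of 7 fatty acid genes, 1 rose, the desaturase gene OLE1 (0.33 ± 0.17). The calls of PDR11, TIR3, HES1, YSP2, DAP1 and HEM14 held without any 1 strain. Those of SWH1, YEH1 and SRT1 were lost without cdc4-3 alone (adjusted p = 0.0519, 0.0519 and 0.0605), and those of the other 13 genes without 3 or more of the strains, each in turn. After median centring 10 of the 70 were called higher and 14 lower, where 524 and 503 of all 5449 genes were. After quantile normalization the counts were 13 and 16, where 487 and 530 of all 5449 genes were called. The rises of SUT2, SAY1, HRD3, MOD5 and OLE1 missed the threshold after median centring (limma adjusted p from 0.0524 to 0.0882). Those of SUT2 and MOD5 also missed it after quantile normalization (limma adjusted p = 0.0524 and 0.0674).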

How the data were processed

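Total RNA from 10 yeast samples was hybridised as biotin-labelled cRNA to Affymetrix arrays, per the labels' protocols. The deposited values are 1 number per probe set and array on a log2 scale, inferred from their range, and how the authors summarised, background-corrected and normalized the probes is not stated in the sources used here. Of 5716 probe sets, 5498 had 1 gene symbol, 0 had several and 218 were unnamed and not used. Symbols were updated by gene identifier with the R64 RefSeq table (12 changed), and the probe set with the highest mean was kept for 47 genes with several, leaving 5449 genes. No filter on low values was used.

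Tests used limma 3.58.1 (R 4.3.3). P-values were two-sided, adjusted by Benjamini-Hochberg across the 5449 genes, and called below 0.05. The shift had strain as a block, taken from the labels. Arrays of a strain deviated together (r from 0.428 to 0.768, at most 0.115 between strains). The labels do not say whether the arrays of a strain share a culture. Strains serve as the replicates, and the p-values reflect how far strains differ. Tests on simulated data with 200 of 5449 genes changed recovered 60.0% of shifts of 0.5. Alternatives were other scalings, probe set choice, a filter on dim genes, another variance prior, no block and leaving out each strain.

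The members and lists were chosen with earlier results of these data known. All members are accounted for, and values per array are given for those called or among the 10 largest mean differences, and for ARE2. Per strain the 3 highest and 3 lowest changes are named, and per contrast the members called or else the largest. From other lists at most 4 called genes are named. Of 74 names in these lists, 4 (YSP1, DOA10, FEN1 and SUR4) matched no symbol, DOA10 being another name of SSM4. Matching was by symbol only, so the others may be on the array under names not searched. The size of 0.5 for single strains and the comparisons of paralogs and of CYB5 with NCP1 were chosen after the data were seen.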

Additional observations from a re-analysis of the deposited data

Results flagged for a closer look

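Each member's levels at room temperature, at 35 °C and its changes were searched for a strain whose gap to the nearest other exceeded 0.71 of the range of the 5 values, which chance gives in about 1 of 20 groups. This held in 5 of 93 groups. At room temperature CYB5 stood at 12.09 in skp1-25, where the others ranged from 12.86 to 13.02, IDI1 at 12.55 in skp1-25 (others 12.67 to 12.70), and ERG1 at 13.05 in skp1-11 (others 12.74 to 12.80). At 35 °C ERG2 stood at 13.31 in cdc53-1 (others 13.57 to 13.64). The change of ERG6 was -0.33 in cdc53-1 (others -0.02 to 0.09).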

How the results depend on the processing

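Of the 31 members' shift tests, 25 kept their direction and side of the threshold under median centring, 25 under quantile normalization, 27 under an intensity trend in the variance prior, and 31 under the mean of probe sets or with the dimmest 20% of genes left out. Median centring called 503 genes lower, and quantile normalization 530, against 251; both called 0 members higher and 5 lower. The intensity trend called 4 members higher (IDI1, ERG1, CYB5 and ERG10) and 5 lower (ERG24, ECM22, HMG2, ERG7 and ERG26), and in standing levels 30 genes in cdc34-3, 306 in cdc4-3 and 294 in skp1-25, and 1 member in skp1-11; with the dimmest 20% left out skp1-11 had 2 members called. Without the replicate block on strain, 282 genes were called higher and 67 lower, with 0 members higher and 1 lower, ERG24 (adjusted p = 0.0255). Leaving out each strain in turn gave 291 to 527 genes higher and 80 to 136 lower, with 0 to 1 members higher and 0 to 1 lower. In standing levels it gave 146 to 398 genes in cdc53-1, 9 to 24 in cdc34-3, 86 to 171 in cdc4-3, 167 to 257 in skp1-11 and 49 to 169 in skp1-25, with 0 to 1 members in cdc4-3, 0 to 1 in skp1-11 and 0 in skp1-25. These fits have fewer samples; for the other settings the cause was not tested. The exact sign-flip permutation test over 5 strains cannot go below p = 0.0625, so it calls nothing. No called direction reversed under these settings.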

Other observations

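A grouping made after the values were seen, and therefore not tested, sets apart the enzymes that use molecular oxygen. ERG1, ERG11, ERG25, ERG3 and ERG5 all had means above 0 (0.13 to 0.27), and the other 10 genes from ERG9 to ERG4 all had means below 0 (-0.30 to -0.01). The oxygen-using genes stayed above 0 after median centring and quantile normalization. Within strains, all 5 oxygen-using genes were above 0 in cdc34-3, cdc4-3, skp1-11 and skp1-25, and 3 of 5 in cdc53-1. Of the other 10, 4 were above 0 in each of those 4 strains and 0 in cdc53-1. Without cdc53-1 the means were above 0 for 5 of 5 and for 4 of 10. Of these 15 genes only ERG1 and ERG24 passed the test.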
